A study of Rattus norvegicus with 939 samples.

Results

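The coxibs celecoxib, rofecoxib and valdecoxib are the treated arrays described here: 18 of the 939 arrays of a compendium of primary rat hepatocytes in culture, and 18 of its 826 arrays of compound-treated cells. Members were taken by the compound label, at both exposure times, and each compound was set against the DMSO vehicle arrays whose description names it. Valdecoxib was given at 450 uM, celecoxib at 100 uM and rofecoxib at 111 uM, each for 0.67 d and for 1 d, with 3 arrays per compound and time. The valdecoxib arrays were set against 14 DMSO arrays, which come from 2 control sets of 8 and 6 arrays, since both sets name the compound and the labels do not say which one belongs to it. Celecoxib and rofecoxib were set against the same 8 DMSO arrays, 4 at each time, so that their comparisons are not independent of each other. The 3 doses differ, and values of the 3 compounds therefore stand side by side without a test between compounds.

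Coxibs inhibit cyclooxygenase-2, the inducible isoform of the enzyme that converts arachidonic acid into the precursor of prostaglandins and thromboxane, and largely spare the constitutive isoform cyclooxygenase-1. All 3 carry aryl groups on adjacent positions of a central ring. Celecoxib and valdecoxib are sulfonamides built on a pyrazole and an isoxazole, whereas rofecoxib is a methyl sulfone built on a furanone. Aryl sulfonamides of this kind also bind carbonic anhydrases. Hepatocytes clear these drugs and answer foreign chemicals and stress through separate programmes. The nuclear receptors CAR and PXR and the aryl hydrocarbon receptor (AhR) induce drug-metabolizing enzymes, the factor PPARa drives fatty acid oxidation, and NRF2 governs antioxidant genes. In the integrated stress response, amino acid shortage, unfolded protein in the endoplasmic reticulum or other insults raise translation of ATF4, which induces the factor CHOP (gene Ddit3), amino acid transporters, biosynthetic enzymes and aminoacyl-tRNA synthetases.

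Expression was read as deposited RMA log2 values, on which a difference of 1 is a doubling of the probe signal, and 14218 genes were tested, each by 1 probe set. Over the 40 arrays used, array medians over these genes lay between 6.88 and 7.14, and each array correlated with its nearest neighbour at 0.990 or more. The label of the cells was checked on marker genes. In the control arrays the hepatocyte markers stood at a median percentile of 99.5 among all genes, against 15.8 to 32.3 for markers of Kupffer, endothelial, stellate and bile duct cells. The labels give 2 of the 3 valdecoxib arrays at each time the same replicate number, 1. The labels give numeric codes for RNA extraction and for hybridization, each taken here as a day and numbered in order. These 2 arrays differ in both codes and were kept separate, and with their mean counted once 4 treated values remain. Titles of the DMSO arrays hold a code shaped like a date, which differs between replicate numbers and is shared by both times. What this code marks is not stated, and titles of treated arrays hold none. Whether replicate arrays are cultures of their own is therefore not settled by the labels. The p-values measure only the spread between these arrays, which may be technical, and the number of arrays limits the precision.

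Valdecoxib at 450 uM changed a large part of the transcriptome: stress-response genes of the ATF4 and CHOP programme stood at the top of the rises, and most complement and coagulation genes, most constitutive P450 genes and the hepatocyte factor Hnf4a fell. A gene was called at an adjusted p of 0.01 or less in limma, with Benjamini-Hochberg adjustment over all genes, and a change of at least 1.5-fold. In a model with treatment and time, 1733 genes were called higher (12.2%) and 1892 lower (13.3%), so that 25.5% of all genes tested form the background for every count below. In 26.2% of all genes, the 6 treated arrays lay entirely above or entirely below the 14 DMSO arrays. Since these are whole cultures, fewer cells of a type and less RNA per cell cannot be told apart.

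Ddit3, which encodes the stress factor CHOP, read 12.49, 12.71 and 12.77 with valdecoxib (lowest, median and highest log2 value), against 7.76, 8.61 and 9.58 in the DMSO arrays. Every treated array lay about 3 log2 units above the highest control, and the treated arrays were tightly bunched. The fitted difference was 4.00 ± 0.17 (SE; 16-fold, adjusted p = 4.03e-14). Fgf21, a hormone that hepatocytes secrete under starvation and stress, read 9.53, 10.90 and 11.33 with valdecoxib, against 5.14, 6.16 and 6.94 in DMSO. The groups did not overlap, and the rise of 4.46 ± 0.25 (22-fold, adjusted p = 2.01e-12) was the largest among the called genes. Trib3, a pseudokinase induced by ATF4 and CHOP, read 11.44, 11.54 and 11.71 with valdecoxib, against 8.42, 8.87 and 9.54 in DMSO, a difference of 2.63 ± 0.13.

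Of the 30 measured genes of the ATF4 and CHOP list, 23 were called higher and 2 lower, with a median log2 fold change of 1.31, against a median of 0.06 over all genes. The factors of the programme rose, with Atf3 at 2.89 and Atf4 itself at 1.34 on the log2 scale. So did Chac1, which degrades glutathione, at 2.78, the secreted Gdf15 at 2.65, the chromatin-associated stress protein Nupr1 at 1.86 and Asns, which makes asparagine, at 1.49. The cystine transporter Slc7a11 rose least clearly of these, by 0.97 ± 0.28 (adjusted p = 0.00512), and its treated and control arrays overlapped. With the same-numbered arrays averaged it was no longer called (0.85, adjusted p = 0.0143). The 2 members called lower were Ddit4, an inhibitor of mTORC1 signalling (−1.75), and Atf5 (−0.73), a factor related to ATF4. Of 19 aminoacyl-tRNA synthetases, which load amino acids onto tRNA, 9 were called higher and 0 lower, led by Sars1 (1.55 ± 0.09) and Wars1 (1.53 ± 0.09), with a median of 0.56 for the list. Of 24 chaperones and folding factors of the endoplasmic reticulum, 15 were called higher, among them Herpud1, a component of the degradation machinery for misfolded proteins (2.27), the disulfide isomerase Pdia4 (1.86), Sdf2l1 (1.72) and the chaperone Hspa5 (1.27). The oxidase Ero1a was the single member called lower (−0.90).

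**Figure D1:**
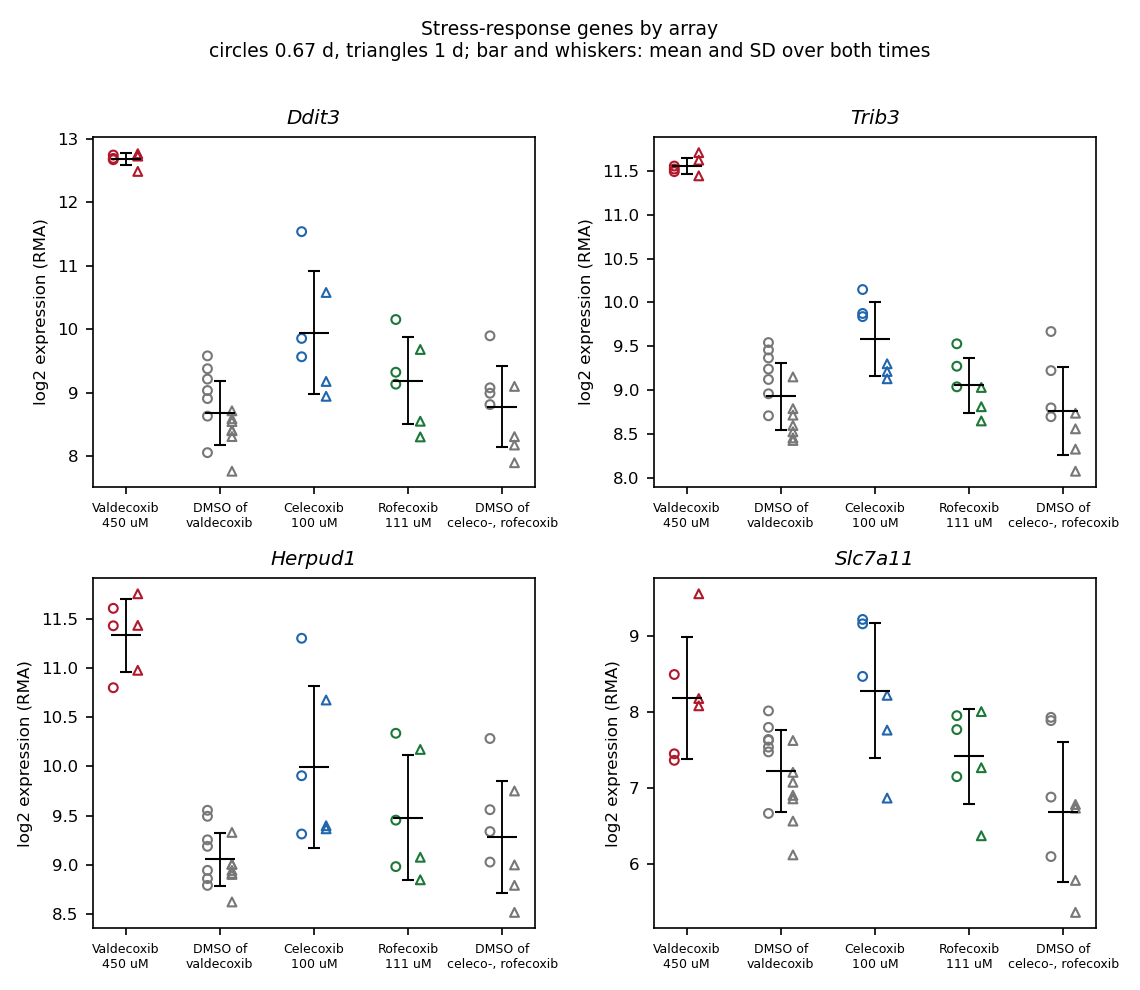
Log2 expression of 4 stress-response genes on each array (circles 0.67 d, triangles 1 d), with treated groups and their DMSO controls along the horizontal axis and bars for mean ± SD over both times. Valdecoxib arrays of Ddit3 read 12.49 to 12.77, all above the 14 DMSO arrays, whereas arrays of Slc7a11 overlap their controls.

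The region upstream of these genes is shown because ATF4 and the factors of the unfolded protein response act through short elements close to the start of transcription. Sequences are the 250 bases before the start of each gene in RefSeq (rat build GRCr8), 5′ to 3′ along the gene. Capitals mark the element found, either TGATGNAA, bound by ATF4 with a C/EBP partner and read here on the opposite strand, or the endoplasmic reticulum stress element, CCAAT and CCACG with any 9 bases between them. Both were searched on both strands, and neither pattern contains the other. In Fgf21 (chr1:105221377-105221626, minus strand) the element spans bases 143 to 136 before the start, in Chac1 (chr3:126795881-126796130, plus strand) bases 167 to 160, in Trib3 (chr3:161275534-161275783, minus strand) bases 21 to 14, in Herpud1 (chr19:10614708-10614957, minus strand) bases 184 to 177, and in Hspa5 (chr3:38452766-38453015, plus strand) the stress element spans bases 43 to 25.
Fgf21: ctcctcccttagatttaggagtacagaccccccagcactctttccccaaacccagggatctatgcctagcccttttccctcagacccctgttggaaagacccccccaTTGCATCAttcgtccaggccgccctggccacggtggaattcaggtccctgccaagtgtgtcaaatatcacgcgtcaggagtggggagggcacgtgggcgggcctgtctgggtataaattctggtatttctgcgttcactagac
Chac1: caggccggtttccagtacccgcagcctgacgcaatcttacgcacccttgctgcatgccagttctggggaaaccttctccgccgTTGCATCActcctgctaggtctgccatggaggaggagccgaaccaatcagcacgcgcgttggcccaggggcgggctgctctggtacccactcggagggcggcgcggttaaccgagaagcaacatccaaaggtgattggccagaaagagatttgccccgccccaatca
Trib3: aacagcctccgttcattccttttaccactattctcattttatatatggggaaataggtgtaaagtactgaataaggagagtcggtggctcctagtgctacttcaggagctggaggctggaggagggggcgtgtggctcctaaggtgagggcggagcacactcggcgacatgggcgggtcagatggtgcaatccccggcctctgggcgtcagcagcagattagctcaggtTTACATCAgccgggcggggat
Herpud1: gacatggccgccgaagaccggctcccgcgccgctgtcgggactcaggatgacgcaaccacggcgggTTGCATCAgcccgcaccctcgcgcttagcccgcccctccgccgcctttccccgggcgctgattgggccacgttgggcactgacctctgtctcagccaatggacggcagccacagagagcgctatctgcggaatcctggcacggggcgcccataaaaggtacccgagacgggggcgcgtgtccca
Hspa5: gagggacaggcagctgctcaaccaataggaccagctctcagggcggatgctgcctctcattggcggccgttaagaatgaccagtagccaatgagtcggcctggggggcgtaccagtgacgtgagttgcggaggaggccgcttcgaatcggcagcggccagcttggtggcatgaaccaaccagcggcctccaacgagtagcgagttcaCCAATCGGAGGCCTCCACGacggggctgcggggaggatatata

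Among all 33469 RefSeq promoters, 1139 (3.4%) hold TGATGNAA in this window. It was found in 6 of the 28 promoters matched for the ATF4 and CHOP list (21.4%), those of Chac1, Fgf21, Nupr1, Pck2, Slc7a1 and Trib3, in 5 of 17 synthetase promoters (29.4%), those of Aars1, Iars1, Mars1, Nars1 and Tars1, and in 1 of 19 promoters of the endoplasmic reticulum list (5.26%), that of Herpud1. The stress element is in 22 of all promoters (0.0657%), of which 8 are among the 19 of the endoplasmic reticulum list (42.1%): Calr, Canx, Creld2, Dnajc3, Ero1b, Hsp90b1, Hspa5 and Xbp1. A match describes the letters only, and no binding was measured.

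Other stress and growth genes moved in both directions. Among all genes called higher, the 12 largest rises were those of Fgf21, Ddit3, Atf3 and the kinase Pim1 (3.92), the complement regulator Cd55 (3.48), the pluripotency and differentiation factor Klf4 (3.41 ± 0.14), the decoy receptor Il1r2 (3.40), Pdk4, which shuts pyruvate out of mitochondrial oxidation (3.34), the transaminase Bcat1 (3.15), Shc4 (2.98), Sapcd2 (2.97) and LOC100912041 (2.86). Klf4 stood at a median of 11.10 with valdecoxib, against 7.67 in DMSO, and the groups did not overlap. Of 18 p53 targets 5 were called higher, with Tp53inp1 at 2.49, Gadd45a at 1.77 and Mdm2, the ligase of p53, at 1.25, and 3 were called lower. Of 25 AP-1 and immediate early genes 8 were higher and 2 lower, with Myc at 1.70 and Maff at 1.65. Of 31 genes of replication and mitosis 9 were higher, led by the licensing factor Cdt1 (1.57), and 2 lower, cyclin D1 (Ccnd1, −3.62 ± 0.27) and thymidylate synthase (Tyms, −1.05). Of 22 BCL2-family genes and caspases 5 were higher, with the inhibitor of apoptosis Birc2 at 1.90 and Casp4 at 1.6, and 2 lower, with Apaf1, the scaffold of the apoptosome, at −1.51. The heat shock list had 3 of 15 members higher, led by Zfand2a (2.30), and 2 lower, the chaperones Cryab (−1.49) and Hspa4 (−1.24). Oxidative stress genes of the NRF2 list moved mainly down. Of 20, 10 were called lower, among them Gclc, which starts glutathione synthesis (−1.73), Akr7a3 (−2.08), Aox1 (−1.70), Hmox1 (−0.81) and Nqo1 (−0.70), while Mafg (1.45) and Srxn1 (1.10) were the 2 called higher.

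Hnf4a, the nuclear receptor that maintains hepatocyte gene expression, read 7.40, 7.64 and 7.93 with valdecoxib, against 9.86, 10.15 and 10.39 in DMSO. All 6 treated arrays lay far below all 14 controls, and the difference was −2.51 ± 0.08 (adjusted p = 3.44e-15). Cps1, which commits ammonia to the urea cycle, read 7.35, 7.90 and 9.10 with valdecoxib, against 11.05, 11.32 and 11.91 in DMSO, again without overlap (10.3-fold lower). Egln3, an oxygen-sensing prolyl hydroxylase, read 5.56, 6.01 and 7.03 with valdecoxib, against 9.01, 10.51 and 10.83 in DMSO (20.6-fold lower, adjusted p = 7.53e-14). Tm4sf4, a tetraspanin-like membrane protein of the liver, fell most, by 4.55 on the log2 scale, followed by Egln3, the mannose-binding lectin Mbl2 (−4.17), Serpinb9 (−4.13), Agrn (−4.10), Gna14 (−4.0), the retinal dehydrogenase Aldh1a1 (−4.0), LOC100910973 (−3.96), Ccn2 (−3.91), Sec16b (−3.90), Lox (−3.83) and the vasopressin receptor Avpr1a (−3.80).

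In the lists of liver functions nearly all called genes were lower. Of 27 complement and coagulation genes 18 were called lower and 0 higher (median −0.99), with Mbl2, factor V (F5, −3.22) and complement C5 (−3.20) lowest. Of 18 constitutive P450 genes 12 were lower and 0 higher (median −1.12), with Cyp2f4 at −2.39, Cyp4f4 at −2.0 and Cyp2c12 at −2.0. Of 13 glucuronosyl- and sulfotransferases 5 were lower, among them Sult1a1 (−3.39 ± 0.21), Ugt2b15 (−2.37) and Sult1b1 (−2.27). Of 17 genes of bile acid synthesis and hepatic transport 11 were lower, with the conjugating enzyme Baat at −3.22 and the uptake carriers Slco1b2 at −2.74 and Slc10a1 at −1.73. Of 18 genes of amino acid, urea and glucose metabolism 10 were lower, with the glycolate oxidase Hao1 at −3.75 and Otc at −2.0, and Asl was the 1 called higher (1.07). Of 17 hepatocyte markers 4 were called, close to the 25.5% of all genes. All 4 were lower, Apob (−3.08 ± 0.19), Hnf4a, Apoa2 (−0.88) and the receptor Asgr1 (−0.79). The summed linear signal of the 17 was 94078 to 115012 with valdecoxib, against 118820 to 135746 in DMSO. Of 11 acute phase genes 3 were called, close to the share of all genes, the iron hormone Hamp higher (1.66) and ceruloplasmin (Cp, −1.43) and Crp (−0.63) lower. Crp was no longer called with the same-numbered arrays averaged.

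Among lipid and energy genes, too, more were called lower than higher. Of 31 PPARa targets 16 were called lower, with Cpt1a, the gate of mitochondrial fatty acid uptake, at −0.69 and Decr1 at −2.14, and 2 higher, Pdk4 and the thioesterase Acot2 (1.77 ± 0.11). Mttp, which loads lipid onto apolipoprotein B, fell by 3.66. Fatty acid synthesis had 10 of 16 lower and 0 higher, with the desaturase Fads1 at −2.44, Acss2 at −2.05 and Gpam at −1.57. Cholesterol synthesis was split, with 3 of 20 higher, Insig1 among them (0.73), and 4 lower, with Nsdhl at −1.69, the regulator Srebf2 at −1.61 and Dhcr7 at −1.52. The list of glycolysis and hypoxia had 5 of 21 lower and 2 higher. Egln3, named above, led the falls, followed by the lactate exporter Slc16a3 (−2.81) and the kinase Pdk1 (−1.46), and Pfkfb3 was higher at 1.35. Of 25 oxidative phosphorylation genes 3 were called, all lower, Ndufa9 at −0.76, Atp5f1a at −0.70 and Ndufa2 at −0.65. Of 30 proteasome subunits 1 was called, Psmd1, lower at −1.04, with Psmd4 at 0.56 and Psmd14 at −0.49 uncalled. Both shares lie under the 25.5% of all genes. Of 13 lysosomal and autophagy genes 2 were higher, with Neu1 at 1.26, and 2 lower, the kinase Ulk1 at −1.18 and Wipi1 at −0.97.

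Called genes of inflammation and matrix were mainly lower. Of 20 cytokine and chemokine genes driven by NF-kB 10 were lower, including Ccl2 (−2.36), Cxcl1 (−2.04) and the feedback inhibitor Tnfaip3 (−1.67), and Il6 was the 1 called higher (1.02), at a low signal of 4.29, 4.74 and 5.03 with valdecoxib, against 3.43, 3.69 and 3.85 in DMSO. Of 18 actin and TGF-beta target genes 1 was higher and 9 were lower, with Ccn2 and the collagen cross-linking enzyme Lox named above and the smooth muscle protein Tagln at −3.70 ± 0.40. The 8 stellate cell markers, of which Reln (−2.24) and the collagen Col3a1 (−0.74) were called lower and Lrat was at −0.55, summed to 385 to 481 on the linear scale with valdecoxib, against 632 to 1041 in DMSO. Reln alone read 6.05, 6.43 and 6.79 with valdecoxib, against 7.99, 8.57 and 9.33 in DMSO. The 6 endothelial markers summed to 141 to 253 with valdecoxib, against 255 to 840 in DMSO, with Lyve1 (−2.10), Kdr (−1.25) and Tek (−0.65) called lower. Over the DMSO arrays of all 3 coxibs, endothelial and stellate markers averaged only 5.43 and 5.92 on the log2 scale. At such signals a linear sum can rest on few members. The 10 Kupffer cell markers summed to 3811 to 4762 with valdecoxib, against 2263 to 3299 in DMSO. Only Cd68, a lysosomal protein, was called among them (0.98 ± 0.11). The complement subunits C1qa and C1qc of the same list had a low signal, though above the lowest array value of 2.66. C1qa stood at a median of 4.35 with valdecoxib, against 4.55 in DMSO, and C1qc at 4.87, against 4.90. The sum of 5 bile duct markers overlapped between valdecoxib (252 to 639) and DMSO (336 to 727), with Epcam at −0.64, Krt7 at 0.17 and Spp1 at 0.07, none of them called. The part of the other cell types in the changes above was not tested.

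More genes passed at the later time of valdecoxib. At 0.67 d 3099 genes were called (21.8%), 1523 higher and 1576 lower. At 1 d 3914 genes were called (27.5%), 1901 higher and 2013 lower, a share of 48.6% higher that became 58.8% (2405 higher and 1688 lower) when each array's median was subtracted. Of the 3625 genes called over both times, 2845 (78.5%) had the larger change at 1 d, with median sizes of 0.85 at 0.67 d and 1.04 at 1 d on the log2 scale. The difference between times itself was called for 21 genes (0.148%), 2 higher (0.0141%) and 19 lower (0.134%). With array medians subtracted these were 18, 4 higher and 14 lower, a share of 22.2% higher against 9.5%. Of the 21, 14 were called lower at both times and lay lower at 1 d. With the same-numbered arrays averaged the difference was called for 14 genes, 1 higher and 13 lower. Mbl2 was lower by 3.29 at 0.67 d and by 5.05 at 1 d, Hao1 stood at −2.84 and −4.67, and the water channel Aqp8 at −1.91 and −3.56. Akr1c14, a hydroxysteroid dehydrogenase, moved late (−0.03 at 0.67 d and −1.86 at 1 d). Dbp, a circadian factor, was 1.33 higher than DMSO at 0.67 d and at −0.50 at 1 d. Slc25a44, a mitochondrial carrier of branched-chain amino acids, stood at −0.15 at 0.67 d and 0.83 at 1 d, and Khdc4 at −0.71 and 0.18. Leaving out 1 array gave between 12 and 31 such genes, with 12 when the 1 d array of valdecoxib from hybridization day 2 was dropped.

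All 6 valdecoxib arrays were hybridized on days that also held controls, 3 days in all, and their RNA was extracted on 2 days that also held controls, of the smaller set only. Within the 3 hybridization days the difference was 3.95 to 4.17 for Ddit3 and −2.58 to −2.40 for Hnf4a, and within the 2 extraction days 3.85 to 4.06 and −2.48 to −2.43. On hybridization day 9 and on extraction day 7 the only control was a 0.67 d array, beside valdecoxib arrays of both times. The differences of these days rest on that 1 control each.

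**Figure D2:**
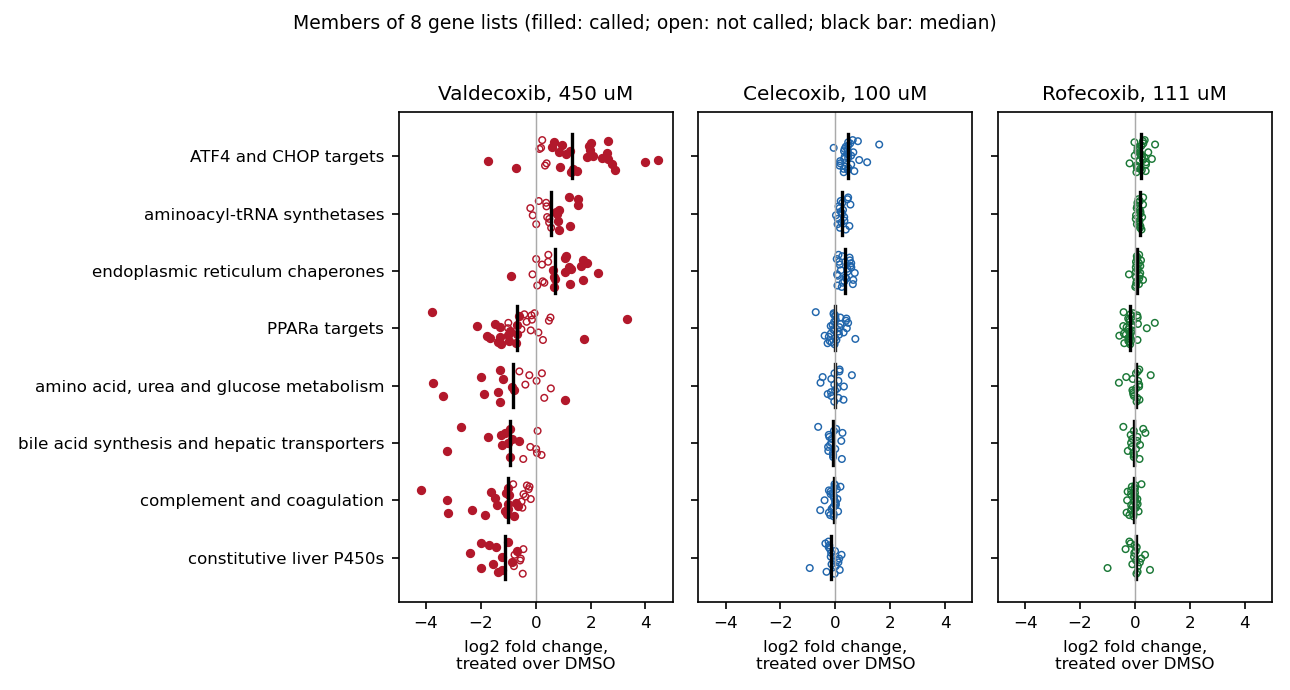
Log2 fold change over DMSO of each measured member of 8 gene lists (horizontal axis), by compound (panels), with filled points for called genes and a black bar for the list median. For valdecoxib 23 of 30 ATF4 and CHOP targets and 0 of 18 constitutive P450 genes were called higher; 0 genes were called for celecoxib and rofecoxib in the fit without pairs.

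Celecoxib at 100 uM had 0 called genes without pairing arrays by replicate number and 36 with it. In the paired fit the genes called higher included Slc7a11, Ddit3 and Trib3 of the stress lists and Ugt2b1, Cyp1a1, Abcb1a and Abcc2 of drug disposition, and those called lower included Cyp2c12, Cyp2b3 and the uptake carrier Slco1b2, also of drug disposition. Without regard to replicate numbers, limma called 0 genes higher or lower at either or both times, with 2042 genes at an unadjusted p under 0.05, 1303 of them higher (9.16%) and 739 lower (5.2%). The lowest adjusted p-values belonged to Eprs1 (0.51, adjusted p = 0.00705), Stub1 (0.49) and the synthetase Sars1 (0.55 ± 0.07), whose changes stayed under 1.5-fold. Next in order were the mitochondrial protease Lonp1 (0.51), the thiolase subunit Hadhb (0.39) and B4galt1 (0.38) among rises, and among falls Agrn (−0.59), Glrx (−0.55), Ddx46 (−0.55), Plaat3 (−0.53) and Bco1 (−0.46), beside Slco1b2, all at adjusted p-values of 0.0246 to 0.0398. Treated and control arrays that carry the same replicate number deviated from their group means together. Fitted with the number as a block, 36 genes were called, 20 higher (0.141%) and 16 lower (0.113%). Each had the same sign in 6 of 6 pairs, on genes picked by this same fit. The 6 pairs hold replicate numbers 1 to 3 at both times, and arrays of a number also deviate together across times. The paired p-values of celecoxib and rofecoxib nevertheless count both times as separate.

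Slc7a11, the cystine transporter, read 6.86, 8.34 and 9.22 with celecoxib, against 5.36, 6.76 and 7.93 in DMSO. The groups overlapped, yet within every pair the treated array was higher, by 0.98 to 1.59, and the paired difference was 1.28 ± 0.09 (adjusted p = 2.11e-05; 0.053 without pairs). Ddit3 read 8.94, 9.71 and 11.54 with celecoxib, against 7.90, 8.90 and 9.90 in DMSO, with paired differences of 0.75 to 1.64 and a fitted 1.12 ± 0.10 (adjusted p = 1.72e-04; 0.137 without pairs). Its highest treated array and highest control array bear the same replicate number. Trib3 (0.70), Herpud1 (0.67) and the chaperone cofactor Dnajb9 (0.60) were also called higher.

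Over the lists, 29 of 30 ATF4 and CHOP targets had a positive difference with celecoxib, with a median of 0.41, and 26 reached an unadjusted p under 0.05 in that direction, where 11.7% of all genes did. All 19 synthetases (median 0.19, 16 at that p) and all 24 genes of the endoplasmic reticulum list (median 0.32, 18 at that p) were positive too. Of these 3 lists 3, 0 and 2 genes were called. Other lists leaned one way as well, with 20 of 21 genes of glycolysis and hypoxia positive (11 at that p), 17 of 20 of cholesterol synthesis positive (10 at that p) and 15 of 18 actin and TGF-beta target genes negative (10 at that p, where 8.39% of all genes were), 0 of them called. Hspa5 read 12.17, 12.47 and 13.04 with celecoxib, against 11.58, 12.06 and 12.77 in DMSO, a paired difference of 0.42 ± 0.07, under the 1.5-fold bound. Fgf21 did not pass (0.77 ± 0.21, adjusted p = 0.0562), and Hnf4a was −0.05 ± 0.07, with groups that overlapped fully.

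Among genes of drug disposition, the glucuronosyltransferase Ugt2b1 (chr14:21378882-21390631 in GRCr8) read 9.15, 10.12 and 10.60 with celecoxib, against 5.85, 7.34 and 10.52 in DMSO. A single control, the 0.67 d array of replicate number 2, stood at 10.52 while the other 7 lay between 5.85 and 7.90, below all treated arrays. The paired difference was 2.05 ± 0.33 (4.15-fold, adjusted p = 0.0064; 0.0638 without pairs), from 0.08 in the pair of that control up to 3.0. Cyp1a1, the P450 induced through AhR, was higher by 1.33 ± 0.21 (6.38, 8.27 and 8.92 with celecoxib, against 4.75, 6.63 and 8.01 in DMSO; adjusted p = 0.0064, and 0.19 without pairs). The efflux pumps Abcb1a (0.87) and Abcc2 (0.64) were called higher, as were Rsad2, an interferon-induced antiviral protein (1.20), and Acot2 (0.70). The other genes called higher were Shc4 (1.01), Bcat1 (1.01), Klf4 (0.86), Niban1 (0.71), Tcp11l2 (0.68), Casp4 (0.64), Zfand2a (0.64), Gde1 (0.60) and Slc25a36 (0.60). Cyp2c12, a steroid-metabolizing P450, was lower in 6 of 6 pairs, by 0.59 to 1.07 (7.47, 8.54 and 9.19 with celecoxib, against 8.34, 9.40 and 10.09 in DMSO; −0.82 ± 0.07, adjusted p = 3.99e-05). Also called lower were LOC100910973 (−0.97), Pla2r1 (−0.89), the caveolar protein Cav1 (−0.84), Gna14 (−0.82), Slco1b2 (−0.70), Vnn1 (−0.69), Avpr1a (−0.65), Cyp2b3 (−0.64), Slc25a23 (−0.64), Kynu (−0.63), Mid1 (−0.63), Popdc2 (−0.61), Fgf1 (−0.61), Rasgrp3 (−0.59) and Crym (−0.59).

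The paired count for celecoxib rests on few arrays. Leaving out 1 array gave 13 to 53 calls, and under 20 without any 1 of the celecoxib arrays 0.67 d number 1 (16), 0.67 d number 2 (17), 1 d number 1 (15) and 1 d number 3 (18), or the DMSO arrays 0.67 d number 1 (14), 1 d number 1 (13), 1 d number 2 (19) and 1 d number 3 (16). Called in all 14 such fits were Slc7a11, Ddit3, Acot2, Abcb1a, Cyp2c12, Cav1, Kynu, LOC100910973 and Pla2r1, whereas Ugt2b1 was called in 2, Trib3 in 4 and Cyp1a1 in 6. Within the 5 hybridization days, where treated and control arrays need not share a number, 21 of the 36 genes kept 1 sign, among them Slc7a11 (0.54 to 2.03), Ddit3 (0.53 to 2.73) and Cyp2c12 (−1.86 to −0.65), and 15 took both signs, among them Cyp1a1 (−0.71 to 2.35), Klf4 (−0.69 to 1.47), Pla2r1 (−1.52 to 1.48) and Vnn1 (−1.13 to 0.64). Hybridization days 6 and 7 held 1 DMSO array of celecoxib each. Within the 3 extraction days that held both groups 36 of 36 kept 1 sign, but there treated arrays largely met controls of their own number. The 36 genes were called on these same arrays, so neither count is a separate test of them. By time, the paired fit called 4 genes at 0.67 d (0.0281%), 2 higher and 2 lower (0.0141% each), and 7 at 1 d (0.0492%), 4 higher (0.0281%) and 3 lower (0.0211%). For 0 genes was the difference between times called, with 564 genes at an unadjusted p under 0.05 for the difference in the paired limma fit and 192 without pairs.

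**Figure D3:**
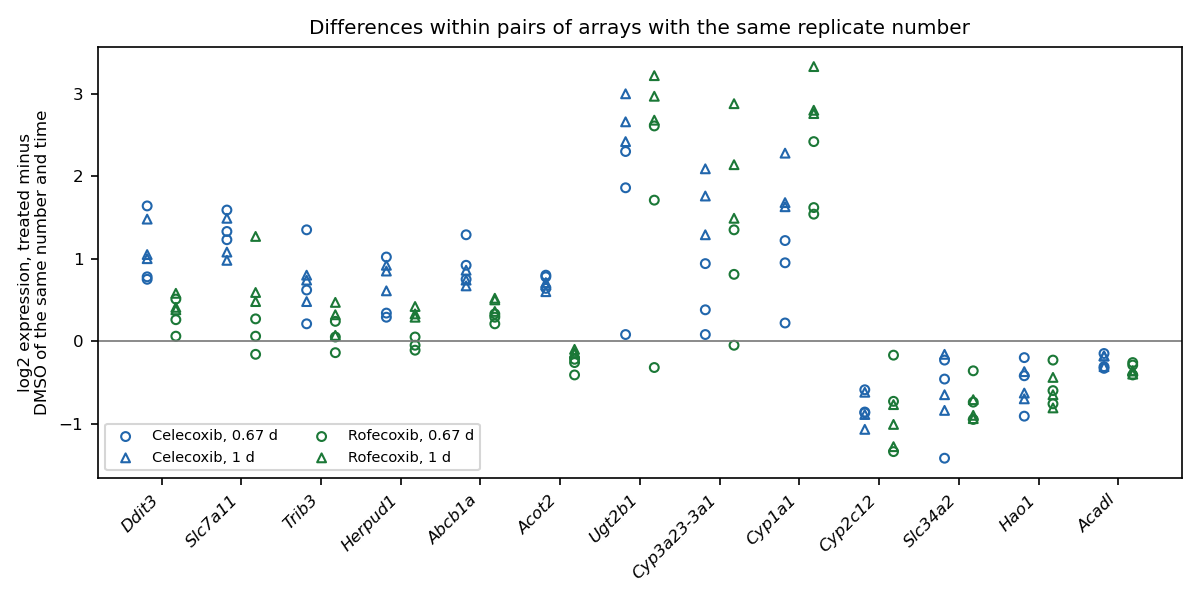
Difference in log2 expression between each celecoxib or rofecoxib array and the DMSO array of the same replicate number and time (vertical axis; circles 0.67 d, triangles 1 d) for 13 genes, with 6 pairs per compound that share their DMSO arrays. The pairs are replicate numbers 1 to 3 at both times. Slc7a11 with celecoxib lay between 0.98 and 1.59, and Cyp1a1 with rofecoxib between 1.54 and 3.33.

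Rofecoxib at 111 uM left the fewest marks: Cyp1a1 rose 5-fold, Cyp2c12 and the phosphate carrier Slc34a2 fell, and 0 other genes passed in the paired fit. Without pairs limma called 0 genes, with 735 at an unadjusted p under 0.05 (477 higher and 258 lower). The smallest p-values after Cyp1a1 and Acadl belonged to Gadd45b (0.57, adjusted p = 0.226), Pla2g12a (0.34), Cinp (0.33), Cyb5a (0.25) and Snap91 (0.23) among rises, and to Smim24 (−0.48), Eci1 (−0.44), Mttp (−0.38) and Sec16b (−0.33) among falls, none called. With the replicate number as a block, 3 genes (0.0211%) were called, 1 higher (0.00703%) and 2 lower (0.0141%), against 1679 at an unadjusted p under 0.05.

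Cyp1a1 (chr8:66991940-66998014 in GRCr8) read 8.08, 9.24 and 9.36 with rofecoxib, against 4.75, 6.63 and 8.01 in DMSO. All 6 treated arrays lay above all 8 controls. The paired difference was 2.41 ± 0.23 (5.32-fold, adjusted p = 9.44e-04), with 1.54 to 2.42 at 0.67 d and 2.76 to 3.33 at 1 d, and without pairs it was 2.31 ± 0.30 (adjusted p = 0.0166). Of the 6 measured AhR targets it was the 1 called, in the paired fits of celecoxib and of rofecoxib alike. With valdecoxib 2 of the 6 were lower, Cyp1a1 and Cyp1a2 (−1.57), and Tiparp was higher (0.77). With rofecoxib Cyp1a2, which the liver also makes without an inducer, stood at 0.28 ± 0.11 (adjusted p = 0.347).

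Slc34a2 read 5.31, 5.70 and 6.15 with rofecoxib, against 6.05, 6.74 and 7.39 in DMSO, so that the groups barely overlapped (−0.77 ± 0.09, adjusted p = 0.00378; 0.383 without pairs). Cyp2c12 read 7.61, 8.31 and 9.32 with rofecoxib, against 8.34, 9.40 and 10.09 in DMSO (−0.88 ± 0.12, adjusted p = 0.00772; 0.672 without pairs). Cyp1a1 was called in all 14 fits that left out 1 array, Slc34a2 in 4 and Cyp2c12 in 2. The count was 1 when any single rofecoxib array of 0.67 d number 1 or 2 or of 1 d, or any DMSO array of numbers 1 to 3 at 1 d or number 1 at 0.67 d, was left out, and 5 without rofecoxib 0.67 d number 3.

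Ugt2b1 read 9.01, 10.35 and 10.61 with rofecoxib, above all DMSO arrays but the one at 10.52, and its paired difference of 2.15 ± 0.36 ran from −0.32 to 3.22 between pairs (adjusted p = 0.0357). Cyp3a23-3a1, the PXR-induced P450, read 11.59, 11.85 and 12.21 with rofecoxib, against 8.22, 9.98 and 11.92 in DMSO (1.44 ± 0.28, adjusted p = 0.0878). Abcc2 stood at 0.64 (adjusted p = 0.094). None of these 3 was called, and their control arrays were widely spread. For Ugt2b1 and Cyp3a23-3a1 the lowest pair was that of the control at 10.52. There Ugt2b1 stood at −0.32 and Cyp3a23-3a1 at −0.05, against 1.71 to 3.22 and 0.81 to 2.88 in the remaining pairs. With celecoxib, whose pairs share these controls, Cyp3a23-3a1 was at 0.08 in that pair and at 0.38 to 2.09 in the rest. Abcc2 was positive in every rofecoxib pair, from 0.23 to 0.95. What sets this control apart was not tested.

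Of 31 PPARa targets, 26 had a negative difference with rofecoxib, with a median of −0.16, and 18 reached an unadjusted p under 0.05 in that direction, where 4.46% of all genes did. Acadl, the long-chain acyl-CoA dehydrogenase, read 11.44, 11.47 and 11.55 with rofecoxib, against 11.70, 11.89 and 12.06 in DMSO. The groups did not overlap, and the paired difference of −0.35 ± 0.04 (adjusted p = 0.00711) was far under 1.5-fold. Hao1, which is not on that list, lay just inside the bound of p and just outside that of size (−0.58 ± 0.07, adjusted p = 0.00711). Of the list, 0 were called. Among the ATF4 and CHOP targets 27 of 30 were positive, with a median of 0.16 and 12 at an unadjusted p under 0.05, where 7.35% of all genes were. Other lists leaned the same way, with 19 of 19 synthetases (12 at that p), 28 of 30 proteasome subunits (1 at that p) and 25 of 31 genes of replication and mitosis (8 at that p) positive. Ddit3 itself read 8.31, 9.23 and 10.16 with rofecoxib, against 7.90, 8.90 and 9.90 in DMSO (0.36 ± 0.07, adjusted p = 0.0916).

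**Figure D4:**
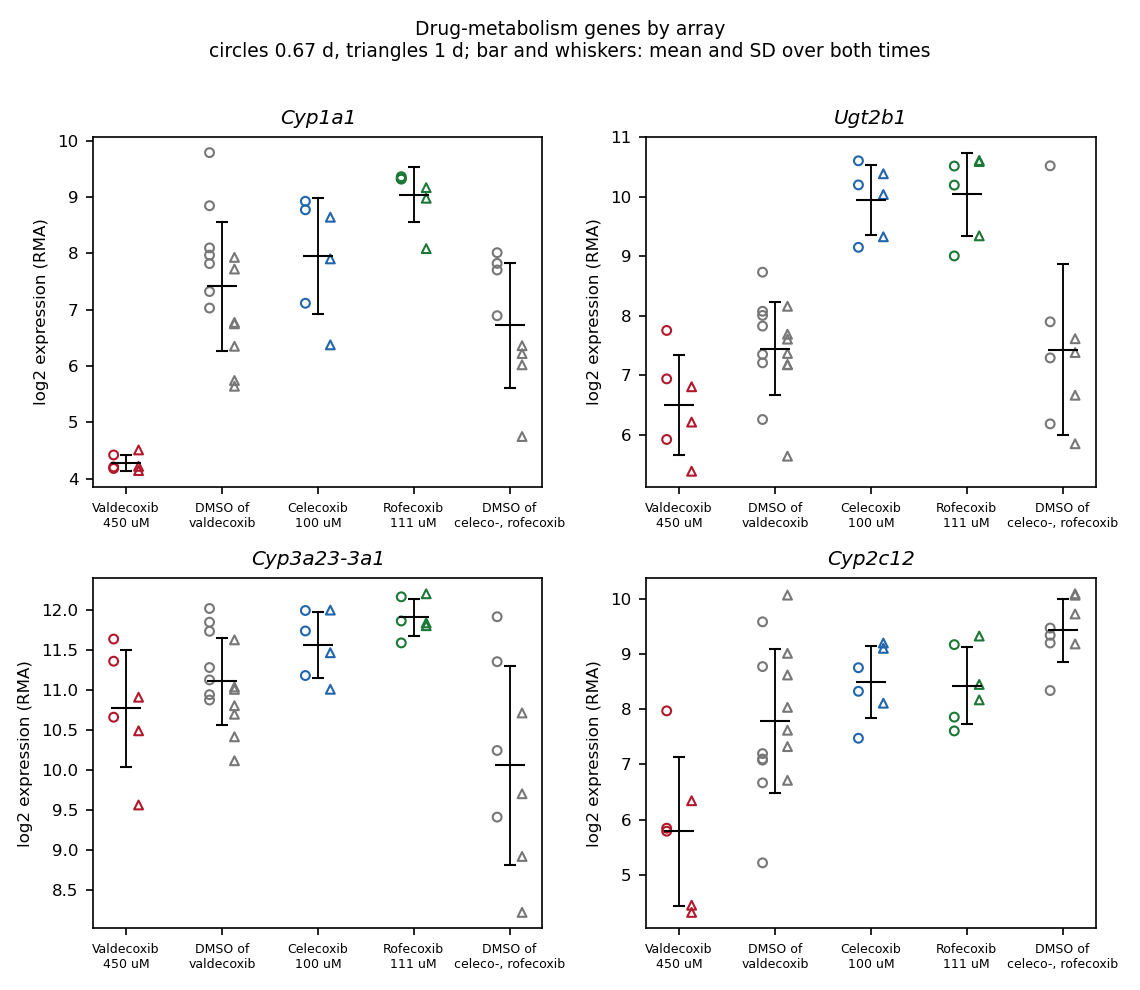
Log2 expression of 4 drug-metabolism genes on each array (circles 0.67 d, triangles 1 d), with treated groups and their DMSO controls along the horizontal axis and bars for mean ± SD over both times. Cyp1a1 lay at 4.15 to 4.51 with valdecoxib, at 6.38 to 8.92 with celecoxib and at 8.08 to 9.36 with rofecoxib, and 1 DMSO array of Ugt2b1 stood at 10.52.

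Side by side, the compounds gave different values for the enzymes of drug metabolism, although doses and, for valdecoxib, control arrays differ. Cyp1a1 read 4.15, 4.22 and 4.51 with valdecoxib, against 5.64, 7.52 and 9.79 in its DMSO arrays, lower by 3.13 ± 0.37 without overlap (adjusted p = 1.85e-07), at treated values in the low range where differences are compressed, while it was called higher in the paired fits of the other two. Ugt2b1 was at −0.94 with valdecoxib, not called (adjusted p = 0.022), and Cyp3a23-3a1 at −0.34 (adjusted p = 0.198). Of the 16 genes listed as CAR and PXR targets 1, Abcb1a, was higher and 4 lower with valdecoxib. Cyp2b3 was among the 4, at −2.67, and whether these receptors act on it in these cells was not tested. With celecoxib 3 of the 16 were higher and 1 lower in the paired fit, and with rofecoxib 0 were called. Abcb1a, which pumps drugs out of the cell, was called with valdecoxib (2.31 ± 0.21) and celecoxib and stood at 0.37 with rofecoxib. Acot2 stood at 1.77 with valdecoxib, 0.70 with celecoxib and −0.21 with rofecoxib (adjusted p = 0.123).

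Of the 20 genes called higher with celecoxib in the paired fit, valdecoxib had 16 called higher (80% of the 20, 0.923% of the 1733 called higher with valdecoxib), 1 lower, Cyp1a1, and 3 not called, Ugt2b1, Abcc2 and Slc25a36. All 16 genes called lower were also called lower with valdecoxib (0.846% of its 1892). Over the 1733 genes called higher with valdecoxib the median paired difference was 0.15 with celecoxib, with 92.1% of genes positive, and 0.09 with rofecoxib, with 85.9% positive. Over the 1892 called lower it was −0.11 with celecoxib, with 19.6% positive, and −0.03 with rofecoxib, with 38.5% positive (−0.06 and 29.2% without pairs). Over all genes 49.8% were positive with celecoxib and 55% with rofecoxib, and since these 2 share their controls, their shares are not independent.

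Ptgs2, which encodes cyclooxygenase-2, read 3.29, 3.46 and 4.17 with valdecoxib, against 3.04, 3.26 and 3.52 in DMSO (0.29 ± 0.10, adjusted p = 0.0218, not called). It read 2.99, 3.15 and 3.27 with celecoxib and 2.86, 3.27 and 3.41 with rofecoxib, against 2.99, 3.18 and 3.83 in their DMSO arrays, with paired differences of −0.01 ± 0.06 and 0.08 ± 0.06. These values lie near the lowest of the arrays (2.66), where differences are compressed. Ptgs1, the constitutive isoform, lay between 4.82 and 5.44 on all 18 treated arrays, and its differences were 0.17 with valdecoxib and, in the paired fits, −0.01 and −0.02 with celecoxib and rofecoxib.

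Of 27 measured genes of prostanoid synthesis and signalling, valdecoxib called 2 higher and 3 lower, beside 25.5% of all genes. The receptor Ptger3 (0.93 ± 0.09) and the synthase Ptges2 (0.60 ± 0.07) were higher, and the prostaglandin transporter Slco2a1 (−1.34 ± 0.19) and the reductases Ptgr1 (−0.88) and Ptgr2 (−0.87) lower. The synthase Ptges3, also a cochaperone, read 12.61 to 12.72 with valdecoxib, against 12.08 to 12.43 in DMSO, without overlap but under 1.5-fold (0.43), and the leukotriene hydrolase Lta4h was at −0.48. The other 20 members, the synthases Ptges, Ptgis, Tbxas1, Hpgds and Ptgds, the dehydrogenase Hpgd, the phospholipase Pla2g4a, both cyclooxygenases, the lipoxygenase group of Alox5, Alox5ap, Alox12, Alox15 and Ltc4s, and the receptors Ptger1, Ptger2, Ptger4, Ptgfr, Ptgdr2 and Tbxa2r, had differences between −0.11 (Ptgis) and 0.29 (Ptgs2). With celecoxib and rofecoxib 0 of 27 were called, in paired differences from −0.24 (Slco2a1) to 0.20 (Ptgr1) with celecoxib and from −0.16 (Ptger2) to 0.12 (Ptgr1) with rofecoxib. Of 14 carbonic anhydrases, valdecoxib called 2 lower, Car3, an abundant form of liver (8.4, 9.64 and 11.67 with valdecoxib, against 11.28, 12.05 and 12.52 in DMSO; −2.28 ± 0.30), and Car14 (−1.51 ± 0.13), and left 12 uncalled, with Car5a at −0.44, Car7 at −0.25 and Car1 at 0.22 and the others, Car2, Car4, Car5b, Car6, Car8, Car9, Car10, Car11 and Car12, between −0.17 (Car8) and 0.06 (Car11). Car3 was at −0.55 ± 0.11 with celecoxib (adjusted p = 0.0155) and −0.19 ± 0.12 with rofecoxib (adjusted p = 0.582), neither called.

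**Figure D5:**
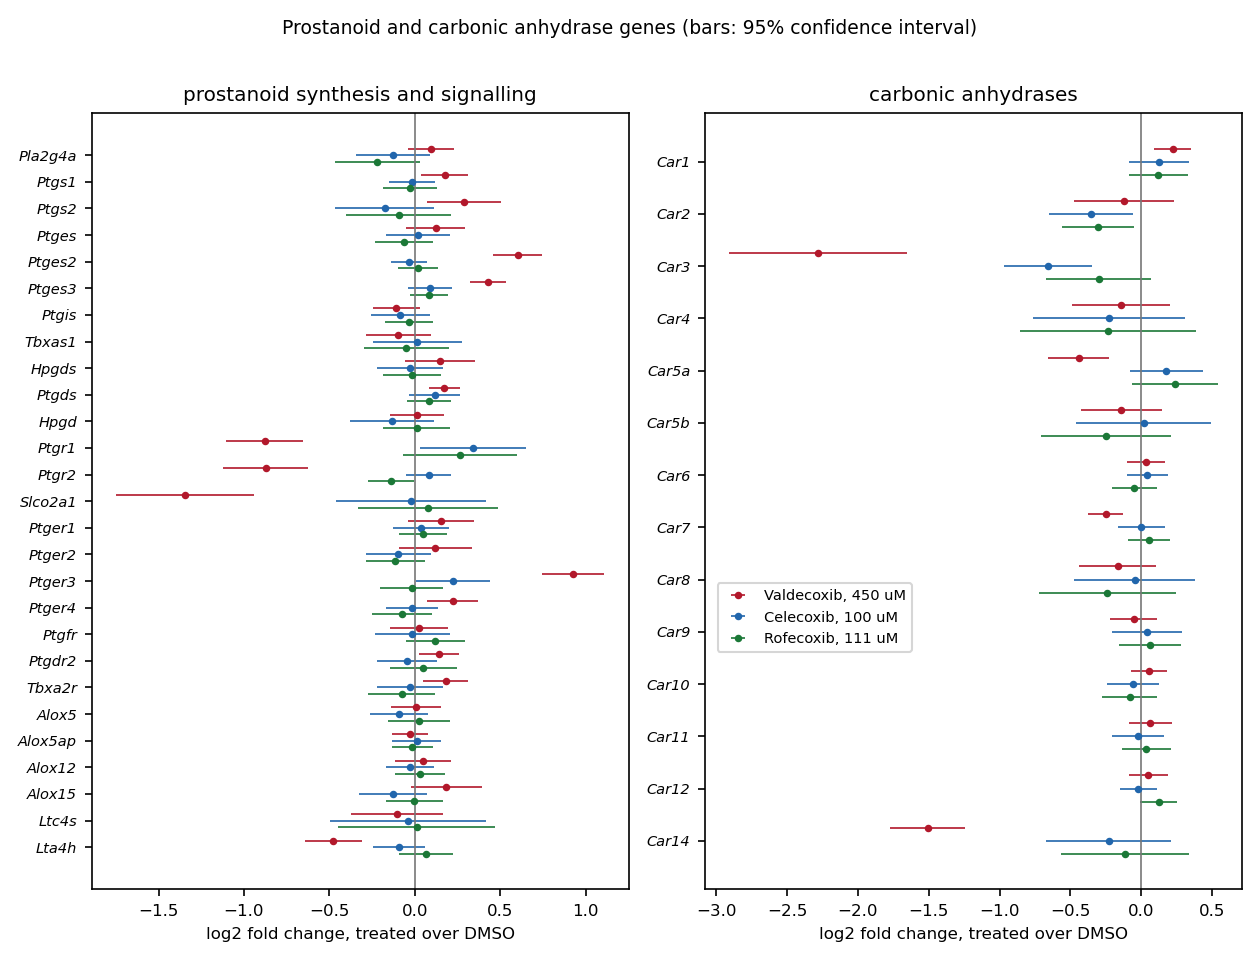
Log2 fold change over DMSO of the 27 prostanoid genes (left) and 14 carbonic anhydrases (right) for the 3 compounds, from the fits without pairs; points are estimates and bars 95% confidence intervals. Slco2a1 (−1.34), Car3 (−2.28) and Car14 (−1.51) with valdecoxib stand left of the others.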

How the data were processed

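RNA of 40 arrays was analysed, the 18 of the coxibs and the 22 DMSO arrays naming them, and 899 value columns of other samples were not used here. The values are log2 signals deposited by the authors as a single table of 31099 probe sets. The submitters' processing notes name RMA without a version and the methods name its frozen form, which scales each array to a common distribution and so hides a shift of most genes one way. Of the probe sets, 20832 carry 1 gene symbol, 436 several and 9831 none, and 20764 matched RefSeq (GRCr8), 68 keeping the annotated symbol. For the 4526 genes with several probe sets the one with the highest mean was used. limma 3.58.1 (R 4.3.3) was fitted per compound with treatment and time, or with the 4 groups for single times and their difference. Data were simulated for 14218 genes, with 100 changed 2-fold, 100 changed 4-fold and noise independent between arrays. Fits without pairs recovered 2-fold changes in 95% of these genes for valdecoxib, 95% for celecoxib and 93% for rofecoxib. False calls were 0, 1 and 1. The noise lacked the deviations that same-numbered arrays share, so these shares do not tell how many real 2-fold changes were missed.

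Replicate numbers restart within each group, and 2 valdecoxib arrays at each time bear number 1. For celecoxib and rofecoxib, arrays of different groups with the same number correlated in their deviations from the group means above 0.1 in 19 of 19 pairs (means 0.607 and 0.661, against −0.209 and −0.227 for different numbers), so the numbers were taken as pairs, from the data and not from the labels. The date-like code in the DMSO titles ties control arrays of a number across times, but no label ties a treated array to it. Summed marker levels are on the linear scale. Tables and figures were made with Python 3.11.15, pandas 2.3.3 and matplotlib 3.10.9.

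Compounds, gene lists and the rule for named genes were chosen with earlier results of these data known. The rule named the 12 largest rises and falls of valdecoxib, the 6 smallest p-values in each direction of celecoxib and rofecoxib, the 3 largest changes of each list, all prostanoid and carbonic anhydrase genes, and the 5 largest differences between times. Genes called only with pairs, and the others the text names, were added after their values were seen. The alternatives were other bounds, control sets, scalings and filters, the test without moderation, blocks for hybridization day, extraction day and replicate number, and each array left out. Those on the paired fits and the mean of same-numbered valdecoxib arrays were chosen after seeing the data.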

Additional observations from a re-analysis of the deposited data

Results flagged for a closer look

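Among 96 tests, of 4 groups of 4 control arrays in each of 24 genes shown array by array, 2 held an array far from the rest, where chance alone gives about 1 in 20. Acot2 stood at 9.46 in replicate 2 of the 0.67 d arrays of the larger control set of valdecoxib, against 9.16 to 9.21 in the other 3. Ptgs2 stood at 3.81 in replicate 4 of the 0.67 d DMSO arrays of celecoxib and rofecoxib, against 2.99 to 3.11 in the other 3, and this array has no treated partner of its number. The 1 d DMSO array of number 4 stood at 3.83, against 3.12 to 3.33 in the other 3.

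The effect of valdecoxib differed between times for 21 genes by limma's test of the difference. The difference over DMSO at 1 d minus that at 0.67 d was 0.98 for Slc25a44 and 0.89 for Khdc4, and −1.84 for Dbp, −1.83 for Akr1c14, −1.83 for Hao1, −1.76 for Mbl2 and −1.65 for Aqp8, on the log2 scale.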

How the results depend on the processing

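The valdecoxib count of 3625 moved by over 1.5 times only with a 2-fold bound (1617, 623 higher and 994 lower). Leaving out 1 array gave 3488 to 3715 calls over both times, 2902 to 3161 at 0.67 d, 3704 to 4004 at 1 d and 12 to 31 for the difference between times. The larger control set alone gave 3816, the smaller 3394, extraction day as a block 3504, and the methods' t-test after Benjamini-Hochberg adjustment 3598 (0 for celecoxib and for rofecoxib). Array medians of treated and DMSO arrays differed by −0.077 on average, and subtracting them gave 3715 (55.6% higher, against 47.8%). The mean of the same-numbered valdecoxib arrays, an alternative chosen after seeing the data, gave 3527, with 2914 at 0.67 d, 3704 at 1 d and 14 for the difference between times. The arrays of extraction day 7 alone could not be fitted, with no residual degrees of freedom. Same-numbered arrays of valdecoxib share only a number: 18 of 42 pairs correlated above 0.1 (mean 0.118), 18 of 20 arrays were closer to their own number, and the replicate block gave 3622 calls.

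For celecoxib, 0 calls became 11 with an adjusted p of 0.05, 1 with the median of probe sets, 25 with the controls of all 3 coxibs, 25 each with hybridization day as a block, as a random effect or over shared days only, 0 with extraction day as a block, and 36 with the replicate block (4 at 0.67 d and 7 at 1 d). For rofecoxib these were 1 with an adjusted p of 0.05, 2 with all controls, 3 with hybridization day as a block, 1 as a random effect, 2 over shared days, 0 with extraction day, and 3 with the replicate block (0 at 0.67 d and 1 at 1 d). Leaving out 1 array gave 0 to 5 calls for celecoxib (5 without the 0.67 d DMSO array of number 3, 1 without that of number 2) and 0 to 1 for rofecoxib (1 without the 1 d DMSO array of number 1). In the paired fits it gave 13 to 53 for celecoxib and 1 to 5 for rofecoxib. The paired count for rofecoxib was 5 at an adjusted p of 0.05, and that for celecoxib 54, 36 with array medians subtracted, 33 with the median of probe sets and 25 without the controls of number 4. The cause of these shifts was not tested. Over 211 named genes, single alternatives took a gene below the bounds in 102 cases with valdecoxib and lifted one past them in 62 cases with valdecoxib, 119 with celecoxib and 13 with rofecoxib, and 0 turned a called change round.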
